A study of Homo sapiens with 12 samples.

Results

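A group of 9 genes, 4 secreted WNT antagonists (SFRP1, WIF1, DKK1 and DKK3), 2 negative regulators whose transcription commonly reads out WNT signalling (AXIN2 and NKD1), the ligand gene WNT5A, the co-receptor gene LRP6 and CTNNB1, which encodes β-catenin, was followed in MiaPaca2 cells with and without epigenetic priming. The genes were chosen by symbol as antagonists and outputs of the pathway, several of them known to be silenced by DNA methylation in cancer, and all 9 were found among the 63677 Ensembl identifiers of the count tables through GENCODE v44. Of the 9, 6 passed the filter on low counts and were among the 17123 genes tested, while WIF1, DKK3 and AXIN2 did not pass and are described by their counts.

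RNA-seq was performed on 12 libraries of MiaPaca2, an established Vitamin D-resistant line of human pancreatic ductal adenocarcinoma (PDAC), to ask how epigenetic priming changes the transcriptome and its response to Vitamin D. The 4 groups had 3 libraries each, and all cells were treated for 24 h. Con received the vehicle DMSO, CPT received the Vitamin D analogue calcipotriol at 1 µM, GTA+5-Aza received the acetate precursor glyceryl triacetate (GTA) at 2 mM with 5-Aza-2′-deoxycytidine (5-Aza), an inhibitor of DNA methyltransferases, at 1 µM, and CPT+GTA+5-Aza received all 3 agents. GTA and 5-Aza were always given together, so their effects cannot be told apart, and Con and CPT are called unprimed below. The methods speak of independent samples for experiments in general, and the labels do not say whether libraries of a group came from separate cultures, so p-values measure the spread between these libraries, which may be technical.

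WNT ligands bind Frizzled receptors and the co-receptors LRP5 and LRP6, which stops the destruction complex from degrading β-catenin and lets it act with TCF/LEF factors on target genes. Secreted antagonists of the SFRP family and WIF1 bind the ligands, and DKK1 blocks the co-receptors, while AXIN2 and NKD1 act inside the cell as feedback inhibitors that the pathway itself induces. In many tumours the promoters of SFRP, WIF1 and DKK genes carry dense methylation at CpG dinucleotides, the sites that 5-Aza leaves unmethylated as DNA is copied.

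The libraries held 16162490 to 21224665 counts. The keratin genes KRT8 and KRT18 were at 1540 and 732 CPM in Con (CPM are TMM-scaled counts on one depth for all libraries) and the mesenchymal marker VIM at 6200 CPM, while the epithelial markers EPCAM and CDH1 were at or near 0 in all 12 libraries. VDR, the Vitamin D receptor gene, was at 1.53 CPM in Con, and CYP24A1, its best known target, had 0 counts in 11 libraries and 2 counts in replicate 1 of CPT+GTA+5-Aza. Between libraries of a group the chi-square per degree of freedom was 3.99 to 18.1, and CPT replicates 2 and 3 were the pair farthest apart. Of 10 markers of cells that the culture should not hold, CD3E, PECAM1, INS and PRSS1 had 0 counts, and the summed level of all 10 was 89.9 to 101 CPM in Con, 85 to 92.9 CPM in CPT, 116 to 126 CPM in GTA+5-Aza and 101 to 109 CPM in CPT+GTA+5-Aza. Nearly all of that sum was the collagen gene COL3A1. Without it the sum was at most 0.729 CPM in unprimed and 1.47 to 2.4 CPM in primed libraries, mostly COL1A1, and the part of these markers in the results below was not tested.

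Promoter sequences are shown for 3 genes that stand for the patterns met below, WIF1 with 0 counts throughout, FZD9 with counts in primed libraries alone, and DKK1, well expressed in every library. Each is the stretch of 250 bases before the start of transcription in RefSeq (GRCh38.p14), written 5′ to 3′ on the strand of the gene, with CpG dinucleotides in capitals.
WIF1: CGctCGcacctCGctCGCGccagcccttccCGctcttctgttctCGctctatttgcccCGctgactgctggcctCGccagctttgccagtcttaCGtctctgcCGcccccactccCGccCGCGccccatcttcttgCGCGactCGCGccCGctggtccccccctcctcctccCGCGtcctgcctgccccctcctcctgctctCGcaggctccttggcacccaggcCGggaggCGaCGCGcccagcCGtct
FZD9: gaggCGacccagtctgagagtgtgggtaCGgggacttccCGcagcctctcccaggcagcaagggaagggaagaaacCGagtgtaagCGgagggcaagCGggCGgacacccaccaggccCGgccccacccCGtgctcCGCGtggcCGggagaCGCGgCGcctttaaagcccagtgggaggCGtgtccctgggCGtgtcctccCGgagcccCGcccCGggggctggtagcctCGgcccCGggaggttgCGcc
DKK1: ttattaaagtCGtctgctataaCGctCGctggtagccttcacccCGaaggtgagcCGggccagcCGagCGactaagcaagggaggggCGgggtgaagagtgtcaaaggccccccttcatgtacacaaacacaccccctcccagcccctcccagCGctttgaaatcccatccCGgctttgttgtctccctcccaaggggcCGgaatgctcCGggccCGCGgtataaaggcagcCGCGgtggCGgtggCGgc

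The WIF1 stretch (chr12:65121306-65121555, minus strand) holds 27 CpG, the FZD9 stretch (chr7:73433528-73433777, plus strand) 23 and the DKK1 stretch (chr10:52314031-52314280, plus strand) 18, against a median of 11 over the 35116 RefSeq promoters. As many CpG or more are found in 17.7% of promoters for WIF1, in 25.8% for FZD9 and in 36.8% for DKK1. CTNNB1, with the highest CPM of the 9 genes, held 34 CpG, and 6.84% of promoters hold as many or more. The entries of WNT5A held 18 and 14. Among other pathway genes described below that had counts in unprimed libraries, TRABD2A held 28, PTK7 24 and EPHB3 21. A link between the number of CpG and the level of a gene was not tested. Among the 9 genes, WIF1, DKK1, WNT5A and CTNNB1 had entries in the promoter table, and SFRP1, DKK3, AXIN2, NKD1 and LRP6 had none. The letters CTTTGAT, a form of the core of the motif bound by TCF/LEF factors, were searched on both strands and were in none of the 5 entries of these 4 genes and in 2.26% of all promoters. Other forms of the core were not searched, and CTTTGAA, which differs in the last base, is in the DKK1 stretch. The search thus does not show that these promoters lack the motif. Methylation was not measured in the data used here.

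Epigenetic priming raised SFRP1 9.69-fold without and 11.6-fold with CPT, raised NKD1 1.93-fold and 2.29-fold, and raised DKK1 1.14-fold and 1.24-fold. WIF1 was not detected in any library. LRP6 and WNT5A did not pass the test in any comparison, and neither did CTNNB1. With an adjusted p under 0.05 taken as a call, 3 of the 6 tested genes rose and 0 fell in GTA+5-Aza relative to Con, where 9.95% of all tested genes were higher and 7.53% lower. The call of DKK1 in that comparison was lost under most other settings, as given below. In CPT+GTA+5-Aza against CPT, which shares no library with that comparison, the same 3 genes were higher and 0 lower, where 9.57% of all tested genes were higher and 7.39% lower. The median log2 fold change of the 6 genes was 0.17 without and 0.64 with CPT, beside 0.0069 and 0.0055 over all tested genes. With CPT the median lay between DKK1 at 0.31 and WNT5A at 0.96, and WNT5A, with few counts, was not called. For the interaction of CPT and priming 0 of the 6 genes passed. Under the thresholds of the study (unadjusted P below 0.05 with more than a 1.5-fold change) SFRP1 and NKD1 were upregulated in both comparisons, where 6.82% and 6.93% of all genes were.

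**Figure D1:**
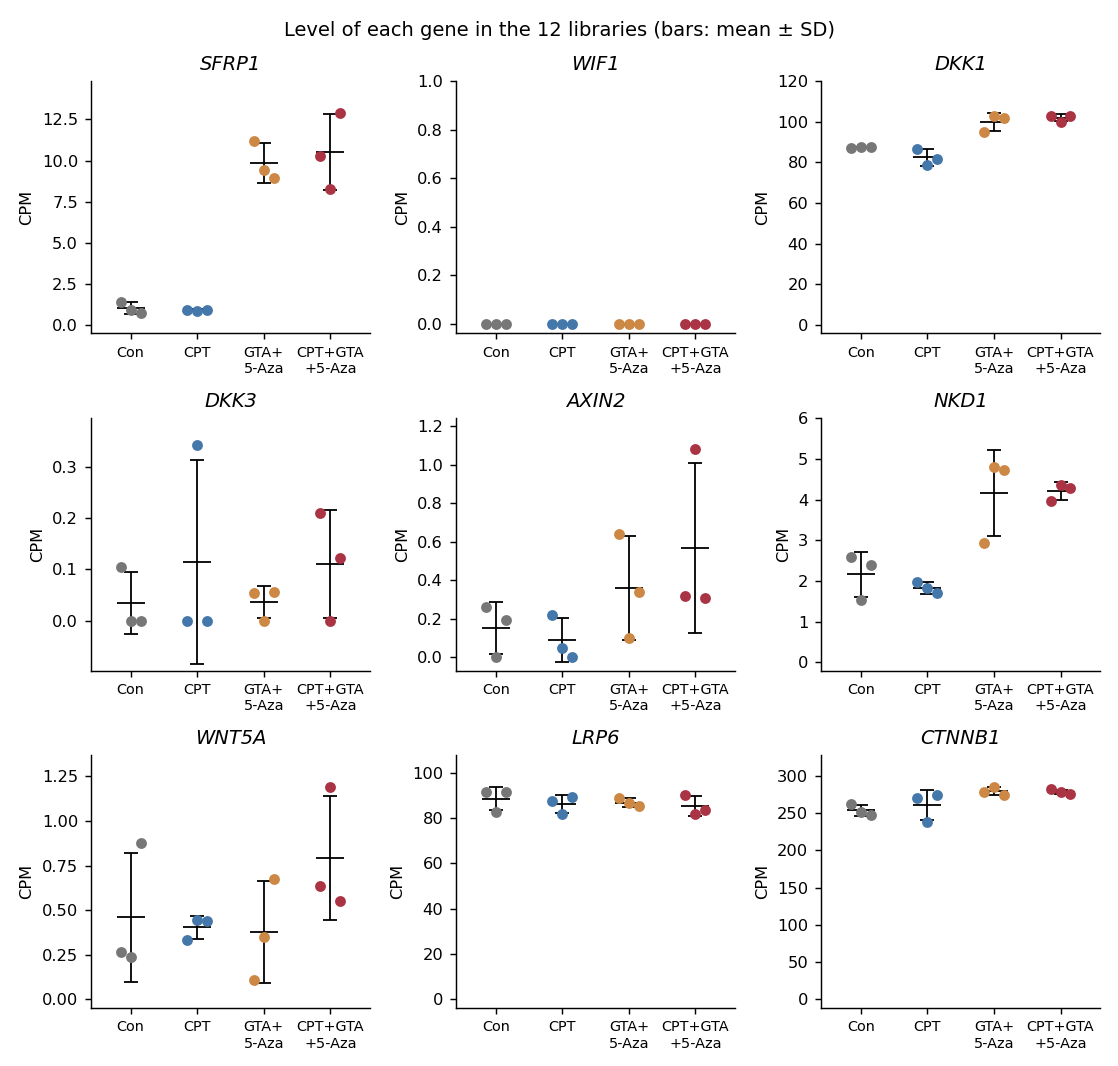
Level of each of the 9 genes (CPM, linear axes that differ between panels) in the 12 libraries by group, with each point a library and the bars the mean ± SD of 3 libraries. SFRP1 sits at 0.729 to 1.42 CPM in the 6 unprimed libraries and at 8.29 to 12.9 CPM in the 6 primed ones, NKD1 and DKK1 separate by less, and WIF1 is at 0 throughout.

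SFRP1 (ENSG00000104332, chr8:41261962-41309473, minus strand) encodes a secreted Frizzled-related protein that binds WNT ligands away from their receptors. It was at 1.42, 0.905 and 0.729 CPM in Con and at 0.935, 0.836 and 0.928 CPM in CPT. In primed cells it was at 11.2, 9.42 and 8.92 CPM in GTA+5-Aza and at 10.3, 8.29 and 12.9 CPM in CPT+GTA+5-Aza. Every primed library was far above every unprimed one, and the primed groups overlapped, as did the unprimed ones. The counts behind these levels were 15 to 27 in an unprimed library and 146 to 210 in a primed one, so that the gene was present at a low level before priming.

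Priming raised SFRP1 by 3.28 on the log2 scale without CPT (SE 0.253, 95% interval 2.76 to 3.80, adjusted p = 1.15e-09 by the Benjamini-Hochberg method, from the quasi-likelihood test of edgeR as all such values here), a 9.69-fold difference. With CPT the difference was 3.53 (SE 0.26, 95% interval 3.0 to 4.07, adjusted p = 4.63e-10), or 11.6-fold. Among the 17123 genes SFRP1 ranked 10th and 8th by p and 63rd and 66th by log2 fold change in these comparisons. In bulk RNA, more cells that express the gene and more of its RNA per cell cannot be told apart. Leaving out any library kept both calls, with log2 fold changes of 3.08 to 3.58 and 3.36 to 3.68.

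CPT made no detectable difference to SFRP1. CPT against Con gave a log2 fold change of -0.17 (95% interval -0.82 to 0.48, unadjusted p = 0.597) and CPT+GTA+5-Aza against GTA+5-Aza gave 0.09 (95% interval -0.33 to 0.51, unadjusted p = 0.671). The effect of priming differed by 0.26 between cells with and without CPT (SE 0.378, unadjusted p = 0.501 for the interaction).

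WIF1 (ENSG00000156076, chr12:65050626-65121305, minus strand), which encodes another secreted protein that binds WNT ligands, had 0 counts in all 12 libraries. At these depths a count of 0 allows up to 3 counts, or 0.143 to 0.184 CPM, for counting error only. WIF1 was thus not detectable before or after priming, and its CpG-rich promoter is printed above.

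DKK1 (ENSG00000107984, chr10:52314281-52318042, plus strand), the secreted antagonist that binds LRP5 and LRP6, was at 87.3, 87.7 and 87.6 CPM in Con and at 86.7, 78.7 and 81.8 CPM in CPT. It was at 95, 103 and 102 CPM in GTA+5-Aza and at 103, 100 and 103 CPM in CPT+GTA+5-Aza. All 6 primed libraries were above all 6 unprimed ones by a narrow margin. The log2 fold change was 0.20 without CPT (SE 0.0672, adjusted p = 0.0442) and 0.31 with CPT (SE 0.0675, adjusted p = 0.00181), 1.14-fold and 1.24-fold. The call without CPT sat at the threshold and was lost under most other settings. Among them were the size factors of DESeq2 (adjusted p = 0.0536) and the loss of any Con library (0.0874 to 0.122) or any CPT+GTA+5-Aza library (0.057 to 0.0588). The call with CPT held without each library in turn (adjusted p of 0.00206 to 0.0112).

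DKK3 (ENSG00000050165, chr11:11956207-12009769, minus strand), a divergent member of the Dickkopf family often methylated in tumours, had 17 counts in all. They were 2, 0 and 0 in Con, 0, 7 and 0 in CPT, 1, 0 and 1 in GTA+5-Aza, and 4, 0 and 2 in CPT+GTA+5-Aza. No group stood apart. Exons of DKK3 share 5681 bases with USP47 on the opposite strand, and with the strand setting of the counting not given in the sources used here, counts of the pair are uncertain. Smaller overlaps on the opposite strand were 227 exonic bases for DKK1, 67 for NKD1 and, among genes below, 204 for WNT11 and 9 for TRABD2A.

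NKD1 (ENSG00000140807, chr16:50548396-50649249, plus strand) encodes a protein that binds Dishevelled and dampens the signal. It was at 2.58, 1.52 and 2.38 CPM in Con and at 1.98, 1.82 and 1.69 CPM in CPT. In primed cells it was at 2.94, 4.81 and 4.74 CPM in GTA+5-Aza and at 3.96, 4.37 and 4.29 CPM in CPT+GTA+5-Aza. The primed and unprimed libraries did not overlap, though replicate 1 of GTA+5-Aza lay close to the highest Con library. NKD1 rose by 0.95 on the log2 scale without CPT (SE 0.278, adjusted p = 0.0182) and by 1.20 with CPT (SE 0.285, adjusted p = 0.00409), 1.93-fold and 2.29-fold. The difference of those effects was 0.25 (SE 0.398, unadjusted p = 0.535). Without CPT the call was lost when Con replicate 2 (adjusted p = 0.0933), GTA+5-Aza replicate 2 (0.0771) or GTA+5-Aza replicate 3 (0.0873) was left out, and with CPT it held without every library in turn.

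AXIN2 (ENSG00000168646, chr17:65528563-65561648, minus strand), a scaffold of the destruction complex and the most widely used readout of β-catenin activity, had few counts. They were 5, 0 and 4 in Con, 4, 1 and 0 in CPT, 12, 2 and 6 in GTA+5-Aza, and 6, 19 and 5 in CPT+GTA+5-Aza. Added up, 14 counts fell in the 6 unprimed and 50 in the 6 primed libraries. The ranges overlapped, with 0 to 0.263 CPM in unprimed and 0.1 to 1.08 CPM in primed libraries. In a fit of all 32000 identifiers with a count, AXIN2 had a log2 fold change of 1.21 without CPT (SE 1.05, adjusted p = 0.613) and of 2.59 with CPT (SE 1.11, unadjusted p = 0.0193, adjusted p = 0.146), so a difference was not resolved at these counts. In GENCODE v44, 1316 exonic bases of AXIN2 are shared with ENSG00000266076 on the same strand, which had 0 counts, and how reads there were counted is not given in the sources used here.

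WNT5A (ENSG00000114251, chr3:55465715-55490539, minus strand) encodes a ligand that acts mainly through β-catenin-independent signalling. It was at 0.263, 0.238 and 0.875 CPM in Con, 0.33, 0.443 and 0.437 CPM in CPT, 0.107, 0.351 and 0.677 CPM in GTA+5-Aza, and 0.634, 1.19 and 0.551 CPM in CPT+GTA+5-Aza, from 2 to 21 counts a library. The CPT+GTA+5-Aza libraries were all above the CPT libraries and overlapped those of Con and GTA+5-Aza. Priming gave a log2 fold change of -0.29 without CPT (95% interval -1.79 to 1.21, unadjusted p = 0.696) and 0.96 with CPT (95% interval -0.48 to 2.41, unadjusted p = 0.182). The first value turned positive without Con replicate 3 (0.57) or without GTA+5-Aza replicate 1 (0.15).

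LRP6 (ENSG00000070018, chr12:12116025-12267044, minus strand), the co-receptor that DKK1 occupies, was at 91.6, 82.7 and 91.5 CPM in Con, 87.4, 81.8 and 89.5 CPM in CPT, 88.8, 86.7 and 85.2 CPM in GTA+5-Aza, and 90.2, 82 and 83.6 CPM in CPT+GTA+5-Aza. All 4 groups overlapped. Priming gave log2 fold changes of -0.03 without CPT (95% interval -0.17 to 0.12) and of -0.02 with CPT (95% interval -0.16 to 0.13), and the intervals span folds of 0.887 to 1.09 and of 0.893 to 1.10.

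CTNNB1 (ENSG00000168036, chr3:41194741-41260096, plus strand) had the highest CPM of the 9 genes, with 262, 252 and 248 CPM in Con, 271, 238 and 275 CPM in CPT, 279, 285 and 275 CPM in GTA+5-Aza, and 282, 278 and 276 CPM in CPT+GTA+5-Aza. The primed libraries lay above the unprimed ones, with the highest CPT library just below the lowest primed ones. The log2 fold change was 0.14 without CPT (SE 0.058, unadjusted p = 0.0235, adjusted p = 0.101) and 0.09 with CPT (SE 0.058, unadjusted p = 0.12, adjusted p = 0.306). It passed the test with counts scaled by library size alone (0.18, adjusted p = 0.0297) and without CPT replicate 2 (adjusted p = 0.0475) in the first comparison, and in both with each library's trend with GC content removed (0.20, adjusted p = 0.00123, and 0.15, adjusted p = 0.0154), a setting added after the data were seen.

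**Figure D2:**
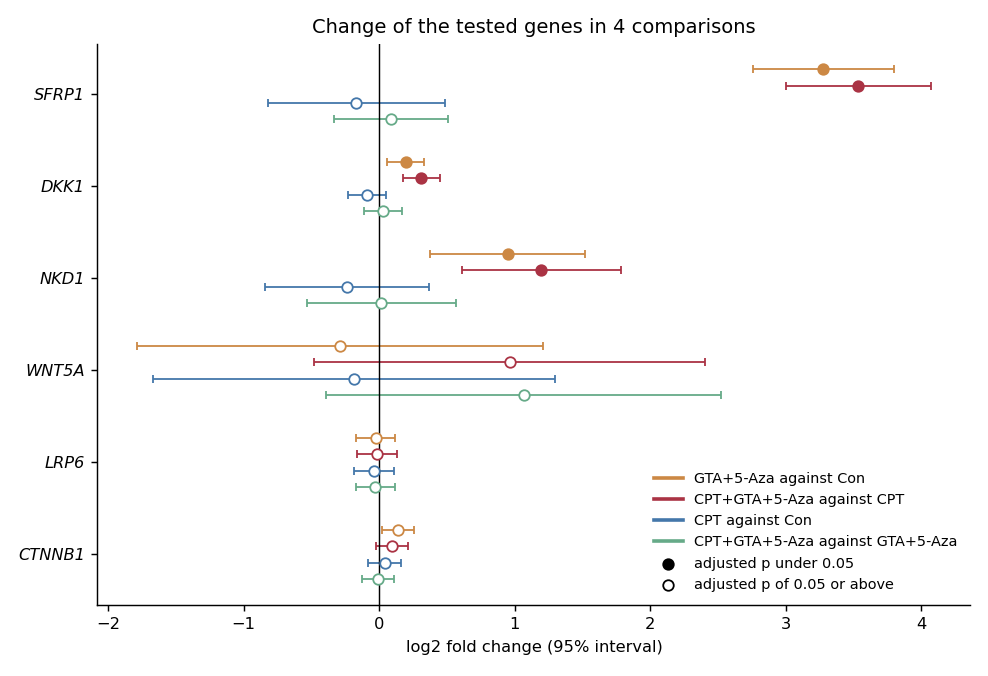
Log2 fold change (x axis) with its 95% interval for the 6 tested genes in 4 comparisons, filled where the adjusted p was under 0.05. SFRP1, NKD1 and DKK1 are filled in both priming comparisons, and the points of both CPT comparisons are open with intervals that span 0.

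Counting genes whose libraries did not overlap, 4 of the 6 (SFRP1, DKK1, NKD1 and CTNNB1) were higher in every GTA+5-Aza library than in any Con library, where 18.1% of all tested genes were. In CPT+GTA+5-Aza against CPT the count was 5, those 4 and WNT5A, where 16.4% of all genes were. None was lower in every primed library in either comparison, where 16% and 14.4% of all genes were.

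CPT left the 6 genes without a call. In CPT against Con, 0 of the 6 passed at an adjusted p under 0.05, and 0% of all tested genes did, with 733 genes at an unadjusted P under 0.05 and none of the 6 among them. In CPT+GTA+5-Aza against GTA+5-Aza the same count was 0, again with 0% of all genes, and 464 genes had an unadjusted P under 0.05, none of the 6 among them. DESeq2 called 0 of the 6 in either comparison, and 4 genes and 1 gene over the whole table. DKK1 was lower in every CPT library than in any Con library (log2 fold change -0.09, 95% interval -0.23 to 0.05, unadjusted p = 0.205), where 4.21% of all genes were. The widest intervals belonged to WNT5A, -1.67 to 1.30 in unprimed cells and -0.39 to 2.52 in primed cells, and those of DKK1, LRP6 and CTNNB1 stayed within 0.23 of 0 in both comparisons. For the interaction of CPT and priming, 0 of the 6 passed and 0% of all genes did. Each CPT comparison shares a group of libraries with each of the priming comparisons.

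Per kilobase of exon in GENCODE v44, the order of levels in Con was DKK1 at 39.4, CTNNB1 at 21.6, LRP6 at 8.54, SFRP1 at 0.215, NKD1 at 0.125, WNT5A at 0.0641, AXIN2 at 0.0293 and DKK3 at 0.00293 CPM per kilobase, with WIF1 at 0. Length here is that of all annotated exons together, 2221 bases for DKK1 and 11759 for CTNNB1, and can exceed that of the expressed transcript. The order between genes depends on it, and by CPM alone CTNNB1 was above DKK1 in Con (254 and 87.5). The libraries of neighbours in this order were separate down to SFRP1 and NKD1 and overlapped from NKD1 down. In primed cells SFRP1 reached 2.08 CPM per kilobase in GTA+5-Aza and 2.21 in CPT+GTA+5-Aza, still below LRP6 at 8.38 and 8.22, while NKD1 was at 0.24 and 0.242. The rank of these genes by this measure was thus the same in the 4 groups except that AXIN2 and WNT5A, whose libraries overlapped, changed places in GTA+5-Aza. By CPM alone SFRP1 was below NKD1 in Con (1.02 and 2.16) and above it in GTA+5-Aza (9.85 and 4.16). The antagonist that priming raised most therefore stayed far below DKK1, which was at 45.1 and 46 CPM per kilobase in the primed groups.

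By the root-mean-square difference of log2 CPM over the 12 libraries, each gene centred on its own mean, the tested genes most like SFRP1 were SSX3 (0.311), a cancer-testis antigen gene, NR5A1 (0.356), which encodes a steroidogenic nuclear receptor, and TFAP2C (0.368), which encodes an AP-2 transcription factor, against a median of 1.67 over all genes. All 3 were at 0 in both unprimed groups and passed the filter on low counts through the primed libraries alone. Log2 CPM here used a prior count of 2, added before the log. For genes at 0 it sets the size of the change, and so how close they come to SFRP1. The mean levels of the 3 in primed groups were 0.517 to 1.05 CPM, below that of SFRP1. SSX3 belongs to a family of near-identical copies, so its counts are uncertain. The genes most like NKD1 were the muscarinic receptor gene CHRM4 (0.178), EPB41L1 (0.203), which encodes a membrane skeleton protein, and SNX33 (0.209), which encodes a sorting nexin, against a median of 0.618. These values describe likeness over 12 shared libraries and were not tested.

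The rest of the pathway was read from a list of 99 further genes, of which 63 were tested. Priming raised 17 of the 63 and lowered 3 without CPT, and raised 17 and lowered 4 with CPT. Over all 17123 genes, 9.95% were raised and 7.53% lowered without CPT, and 9.57% and 7.39% with CPT, and the counts by role below are to be read against these shares. The median log2 fold changes of the 63 were 0.11 and 0.08. Of the 63, 16 passed in the same direction in both comparisons, 13 of them higher, beside 2000 of all 17123 genes, 1153 of them higher, and 6 of those 16 also had a fold change above 1.5 in both. Over all genes 606 of 17123, or 3.54%, met that last condition, and among the 9 genes SFRP1 and NKD1 did. FZD9 and WNT11 are in each of these counts of raised pathway genes. Both needed the primed libraries, where they were high, to pass the filter on low counts.

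**Figure D3:**
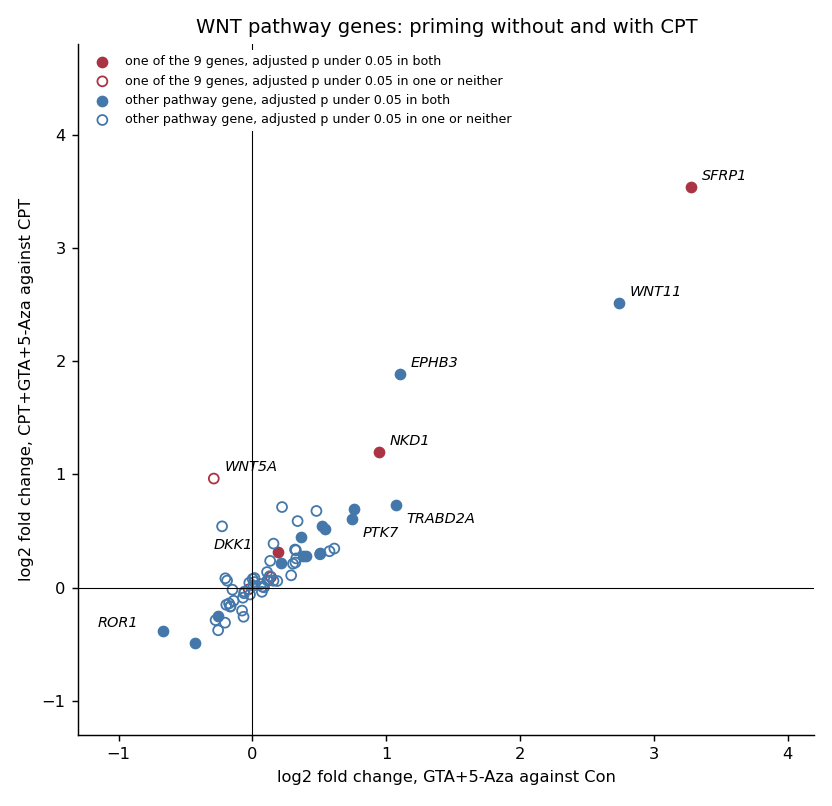
Log2 fold change by priming without CPT (x axis) and with CPT (y axis) for the tested WNT pathway genes, 6 of them from the group of 9 (red) and the others in blue, filled where both adjusted p were under 0.05. FZD9 is left out because it had 0 counts in every unprimed library. SFRP1 lies farthest from the origin, followed by WNT11 and EPHB3.

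Of the 20 ligand and secretion genes 9 were tested, and WNT11, which encodes a mostly non-canonical ligand, passed in both comparisons. It had 0 to 11 counts in an unprimed library and 11 to 52 in a primed one, and needed the primed libraries to pass the filter on low counts. WNT11 was at 0.316, 0.381 and 0.292 CPM in Con, 0, 0.541 and 0.109 CPM in CPT, 2.35, 2.6 and 1.75 CPM in GTA+5-Aza, and 1.37, 1.87 and 0.674 CPM in CPT+GTA+5-Aza. Every primed library was above every unprimed one. Its log2 fold change was 2.74 without CPT (SE 0.638, adjusted p = 0.00335) and 2.51 with CPT (SE 0.686, adjusted p = 0.0114), and the second call was lost without CPT replicate 1 (adjusted p = 0.0524) or CPT+GTA+5-Aza replicate 2 (0.0652) and had a value of 4.42 without CPT replicate 2. PORCN, whose product acylates WNT ligands for secretion, rose by 0.54 and 0.51.

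Of the 15 receptor genes 13 were tested, with 4 higher and 1 lower in each comparison. FZD9, a Frizzled receptor gene whose promoter is printed above, had 0 counts in all 6 unprimed libraries, 4, 9 and 24 counts in GTA+5-Aza and 15, 5 and 21 counts in CPT+GTA+5-Aza. It passed the filter on low counts through the primed libraries alone. Against the 3 counts per library that a count of 0 allows, its mean primed level was 4.52-fold higher without CPT and 4.96-fold higher with CPT. That allowance covers the unprimed side only. The primed libraries ranged from 0.214 to 1.35 CPM in GTA+5-Aza and from 0.284 to 1.29 CPM in CPT+GTA+5-Aza. FZD3, another Frizzled gene, was at 5.36, 6.29 and 5.98 CPM in Con, 7.81, 6.69 and 4.8 CPM in CPT, 10, 11.5 and 8.24 CPM in GTA+5-Aza, and 8.29, 10.8 and 12.2 CPM in CPT+GTA+5-Aza. The groups compared did not overlap, although the highest CPT library and the lowest primed ones were close. FZD3 had log2 fold changes of 0.76 (adjusted p = 0.00708) and 0.70 (adjusted p = 0.0131), the second of them lost without CPT replicate 3 (adjusted p = 0.0785) or without CPT+GTA+5-Aza replicate 2 or 3.

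PTK7, a pseudokinase co-receptor gene, was at 21.8, 27.2 and 27.5 CPM in Con, 28.6, 28 and 26.8 CPM in CPT, 45.9, 39.7 and 42.8 CPM in GTA+5-Aza, and 43.3, 42.7 and 41.1 CPM in CPT+GTA+5-Aza. It separated cleanly and had log2 fold changes of 0.75 (SE 0.102, adjusted p = 9.28e-06) and 0.61 (SE 0.102, adjusted p = 0.000115). ROR1, a receptor gene for WNT5A, was the receptor gene that fell, with log2 fold changes of -0.67 (adjusted p = 2.75e-05) and -0.38 (adjusted p = 0.00844). It was at 42.7 to 51.3 CPM in Con, 35.4 to 42.5 CPM in CPT and 27.2 to 31.1 CPM in primed cells. FZD6 passed at 0.52 and 0.55, but each call was lost under 6 alternatives beside a test against a fold change of 1.5, most of them the loss of 1 library, with adjusted p of up to 0.132 without CPT (Con replicate 2 left out) and 0.152 with CPT (CPT+GTA+5-Aza replicate 3 left out).

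Of the 16 other genes for extracellular antagonists 5 were tested, and 3 were higher without CPT and 4 with CPT, none lower. TRABD2A, whose product cleaves WNT proteins, was at 21.8, 28 and 23.7 CPM in Con, 22.9, 49.2 and 18.2 CPM in CPT, 55.6, 46.8 and 52.3 CPM in GTA+5-Aza, and 52.5, 50.8 and 46.8 CPM in CPT+GTA+5-Aza. CPT replicate 2 stood apart from its group at the level of primed cells. TRABD2A had log2 fold changes of 1.07 (SE 0.2, adjusted p = 0.000402) and 0.73 (SE 0.198, adjusted p = 0.0113), and the second was 1.28 without CPT replicate 2 and 0.46 without CPT replicate 3 (adjusted p = 0.0577), and was also lost without CPT replicate 1 and with DESeq2 (adjusted p = 0.102). IGFBP4, which encodes a secreted protein that also binds Frizzled receptors, passed at 0.38 and 0.28, the second of them lost with GC trends removed (0.13, adjusted p = 0.0522). KREMEN1, a receptor gene for DKK1, passed at 0.51 and 0.30, and its second call was lost without CPT replicate 1 (adjusted p = 0.11) or 3 (0.152), without CPT+GTA+5-Aza replicate 1 or 2 (0.0999 each) and with only the groups compared in the fit (0.0644). The close relatives of the antagonists described above were hardly detected. SFRP2, SFRP4, SFRP5 and FRZB did not pass the filter on low counts, and DKK2 and DKK4 had 0 counts in all 12 libraries.

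Of the 18 cytoplasmic components 17 were tested, 1 higher and 2 lower without CPT and 1 higher and 3 lower with CPT, which is near the shares over all genes. CSNK1E, a casein kinase gene, rose by 0.37 and 0.45, while APC2 (-0.43 and -0.49) and GSK3B (-0.26 and -0.25), both of the destruction complex, fell. The GSK3B calls were lost without Con replicate 3 (adjusted p = 0.0732) in the first comparison and, in the second, without CPT replicate 3 (0.0535), CPT+GTA+5-Aza replicate 2 (0.0518) or 3 (0.0882) and with GC trends removed (-0.17, adjusted p = 0.0532). Of the 13 nuclear components 11 were tested, 4 of them higher without CPT and 2 with CPT, and PYGO2, a β-catenin coactivator gene, passed in both (0.40 and 0.28), the second call lost without CPT replicate 1 (adjusted p = 0.112) or 3 (0.0603) or CPT+GTA+5-Aza replicate 1 (0.0686) or 2 (0.0842). In the R-spondin module, which controls the degradation of receptors, 3 of 9 genes were tested and LGR4 alone passed, without CPT (0.61, adjusted p = 0.0118), with no alternatives run for it.

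Of 16 target genes, several of them also in the lists above, 9 were tested, with 2 higher without CPT, 3 higher with CPT and none lower, and at 9 genes the shares over all genes also give few calls or none in a direction. EPHB3, an ephrin receptor gene, was at 1.1, 1.72 and 1.65 CPM in Con, 1.54, 1.18 and 0.655 CPM in CPT, 2.99, 2.45 and 4.23 CPM in GTA+5-Aza, and 4.33, 4.09 and 4.1 CPM in CPT+GTA+5-Aza. All primed libraries were above all unprimed ones. EPHB3 had log2 fold changes of 1.10 (SE 0.329, adjusted p = 0.02) and 1.89 (SE 0.339, adjusted p = 0.000275), and the first call was lost without Con replicate 1 (adjusted p = 0.1) or GTA+5-Aza replicate 3 (0.139). CCND1, the cyclin D1 gene, had log2 fold changes of 0.21 and 0.22 that passed the test, and both calls ended with GC trends removed (0.04, adjusted p = 0.729, and 0.05, adjusted p = 0.699). SP5 and LGR5, strongly induced targets in other cells, were among 15 of the 36 untested pathway genes with 0 counts in all 12 libraries. PORCN, ROR1, FZD6, IGFBP4, KREMEN1, CSNK1E, APC2, GSK3B, PYGO2, LGR4 and CCND1 were named after their values were seen.

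**Figure D4:**
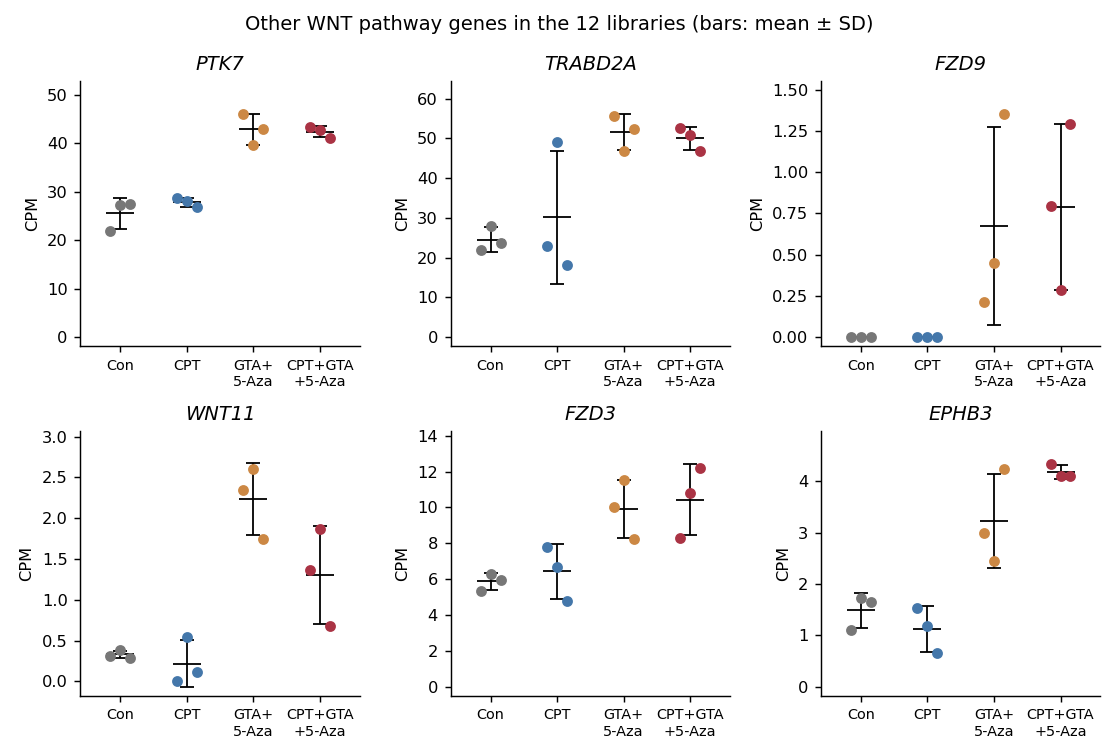
Level (CPM, linear axes that differ between panels) of the 6 other pathway genes with an adjusted p under 0.05 and a fold change above 1.5 in both priming comparisons, by group, with each point a library and the bars the mean ± SD of 3 libraries. FZD9 is at 0 in all 6 unprimed libraries, and TRABD2A in CPT replicate 2 stands at 49.2 CPM among unprimed libraries that are otherwise at 18.2 to 28 CPM.

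Neither CPT comparison gave a call among the 63 genes. In CPT against Con, 2 of them had an unadjusted P under 0.05, ROR1 (log2 fold change -0.23, 0.0252 unadjusted) and TCF7 (-0.29, 0.0306). In CPT+GTA+5-Aza against GTA+5-Aza the 2 were EPHB2 (-0.33, 0.00427) and TCF7 (-0.29, 0.0299). Their adjusted p were all 1 in edgeR, and these genes were named after their values were seen. TCF7 encodes a nuclear partner of β-catenin and EPHB2 a relative of EPHB3.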

How the data were processed

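Libraries were sequenced as 150 bp paired-end reads, which the authors trimmed with Trim Galore, aligned to GRCh38 with HISAT2 2.2.1 and counted per gene with HTSeq (tools from the paper and the submitters' processing notes). What the authors deposited are whole-number read counts for each gene that were not normalized. The annotation release and strand setting are not given in the sources used here. Symbols and coordinates came from GENCODE v44, where 52181 of the 63677 identifiers were found, with 99.047% of the counts, and rows without a gene name took 0.0%. Depth was 16162490 to 21224665 counts, so that 3 counts equal 0.143 to 0.184 CPM.

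In R 4.3.3, edgeR 4.0.16 was used with filterByExpr on the 4 groups, TMM scaling, glmQLFit and glmQLFTest on all 12 libraries in 1 fit, with Benjamini-Hochberg adjustment over 17123 genes and a threshold of 0.05. CPM used TMM-scaled library sizes. Standard errors were derived from the F statistic. The script was tested on simulated counts. Other pathway genes were named in full where both priming comparisons gave an adjusted p under 0.05 and a fold change above 1.5 in 1 direction, others as stated, and likeness was given for genes among the 9 that met the same condition. The genes, lists and tests were chosen with earlier results of these data known. Alternatives were RLE factors, library size alone, DESeq2 1.42.0, no filter, glmTreat, a replicate block, only the 2 groups compared, leaving out each library, and, added after the data were seen, removal of GC trends. The 12 replicate pairs differed by more than sampling noise.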

Additional observations from a re-analysis of the deposited data

How the results depend on the processing

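SFRP1 stayed higher in both priming comparisons under every alternative run, and NKD1 and DKK1 kept their direction in both. A test against a fold change of 1.5 (glmTreat) left 1 of the 9 genes called higher in each priming comparison, SFRP1, and 2 other pathway genes higher and 0 lower in each. With each library's GC trend removed, 6 other pathway genes were lower in GTA+5-Aza against Con. Leaving out each library gave 1 to 4 of the 9 genes higher in GTA+5-Aza against Con (1 without Con replicate 2, GTA+5-Aza replicate 2 or GTA+5-Aza replicate 3) and 3 throughout in CPT+GTA+5-Aza against CPT. In most of these fits DKK1 was not called in GTA+5-Aza against Con. For the other pathway genes leaving out each library gave 13 to 17 higher and 2 to 4 lower in the first comparison, and 8 to 18 higher (8 without CPT replicate 1, 10 without CPT+GTA+5-Aza replicate 2) and 2 to 5 lower (2 without CPT+GTA+5-Aza replicate 2) in the second.

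Signs turned for values near 0 and for WNT5A, whose values swung widely at 2 to 21 counts a library, and none of them was called. LRP6 was 0.0135 and 0.0248 in the priming comparisons by library size alone, and 0.0359 and 0.0391 with GC trends removed. Leaving out each library gave WNT5A -0.98 to 0.57 in GTA+5-Aza against Con and -0.50 to 0.68 in CPT against Con, LRP6 -0.0582 to 0.012 in CPT+GTA+5-Aza against CPT, and SFRP1 -0.36 to 0.13 in CPT against Con. In CPT+GTA+5-Aza against GTA+5-Aza it gave SFRP1 -0.0832 to 0.23, NKD1 -0.18 to 0.13, DKK1 -0.0086 to 0.0512, CTNNB1 -0.0183 to 0.0067 and LRP6 -0.0702 to 0. For the interaction it gave SFRP1 -0.0468 to 0.45 and LRP6 -0.031 to 0.0587. The cause of these changes was not tested.

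Replicate numbers showed no clear pairing in the counts. Deviations from the group means correlated at -0.0844 to 0.1173 for same-numbered libraries (1 of 18 pairs above 0.1) and at -0.0969 to 0.0708 for different-numbered ones. Whether same-numbered libraries were handled together is not given in the labels, and these values cannot settle it. With the replicate number as a block, DKK1 in GTA+5-Aza against Con had a log2 fold change of 0.20 and an adjusted p of 0.0621, so 2 of the 9 genes were called there, and no other call among the 9 changed. Low counts, 0 to 21 a library, limit what can be said of WIF1, DKK3, AXIN2 and WNT5A.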
